A study of Mus musculus with 12 samples.

Results

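Major histocompatibility complex (MHC) class I antigen presentation was followed through 10 genes in cultured mouse SMCs of the airway and PDGFR-β+ cells of the lung, with and without knockdown of Klf4. The genes were the heavy chains H2-K1 and H2-D1, the light chain B2m, the peptide transporter and loading genes Tap1, Tap2 and Tapbp, the immunoproteasome subunits Psmb8, Psmb9 and Psmb10, and the regulator Nlrc5. They were found by symbol in the tables of both cell types, and all 10 of the 52636 rows were present in each. Class I molecules hold short peptides from proteins of the cell's own cytosol at the cell surface, where CD8+ T cells and natural killer cells read them. The proteasome cuts the peptides, the transporter TAP carries them into the endoplasmic reticulum, and tapasin helps load them onto the heavy chain paired with B2m. Most of these genes respond to interferons, through the interferon regulatory factors and through NLRC5, a transactivator of class I promoters.

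Bulk RNA-seq covered 12 libraries in 4 groups of 3. Lung PDGFR-β+ cells received either a scrambled control RNA (Scr, genotype label WT) or a small interfering RNA against Klf4 (siKlf4, genotype label Klf4 KD), and so did SMCs. The labels give both cell types the C57BL/6 strain. For the PDGFR-β+ cells they give lung tissue and an age of 12 weeks, and for the SMCs they give no age. The methods take the PDGFR-β+ cells from lungs of tamoxifen-treated mice that carry Pdgfrb-CreERT2 and a ZsGreen reporter (Zs), by sorting Zs+ cells that DAPI did not stain (the genotype label names no reporter), so that any cell in which the Pdgfrb promoter had driven the recombinase could be included. The SMCs were bought as a commercial culture (CellBiologics). Their titles call them airway SMCs, whereas the source and tissue labels name the trachea. Cells were used at low passage, transfected with 50 nM RNA for 6 h and kept for 72 h in SMC medium. The methods give alternative transfection reagents and alternative siRNA suppliers, without saying which cells received which. The study calls the replicates of both cell types independent experiments. The sources used here do not say whether these were separate mice, sorts or cultures, so p-values measure the spread between these libraries, whatever its source. In the SMCs, 1 Scr and 1 siKlf4 library carry no replicate number and are called the unnumbered libraries below.

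Expression was given as transcripts per 1000000 (TPM), which divides by transcript length and scales every library to the same sum, so that levels may be compared between genes but no sequencing depth is kept. The number of genes above 0 TPM ran from 20590 to 21780 per library. Klf4 itself was at 144, 146 and 134 TPM in Scr PDGFR-β+ libraries and at 12.3, 13.8 and 12.8 TPM after siKlf4, and in SMCs it was at 89.6, 96.3 and 95.03 TPM after Scr and at 26.5, 16.3 and 18.8 TPM after siKlf4. Knockdown was therefore seen in every library, and the unnumbered siKlf4 SMC library kept the highest level of its group. Of 6 markers of PDGFR-β+ mesenchymal cells, 3 were lower and 2 higher in Scr SMCs than in Scr PDGFR-β+ cells (limma, adjusted p under 0.05). Pdgfrb, the defining receptor, averaged 447 TPM in PDGFR-β+ cells and 214 TPM in SMCs, and Col1a1 and Cspg4 were also lower in SMCs, whereas Pdgfra averaged 169 TPM in PDGFR-β+ cells and 417 TPM in SMCs, and Dcn averaged 71.2 and 409 TPM. The 7 smooth muscle markers did not separate the cell types as the labels would, since their summed level was 5551 to 6408 TPM in Scr PDGFR-β+ libraries and 1495 to 2284 TPM in Scr SMC libraries. Myh11, the smooth muscle myosin heavy chain, averaged 20.8 TPM in Scr PDGFR-β+ cells and 15.6 TPM in Scr SMCs. Ptprc, which encodes the leukocyte antigen CD45, was at or below 0.266 TPM in all 12 libraries. Other leukocyte markers were present, with Lyz2 at a mean of 19.0 TPM and Cd68 at 7.56 TPM in Scr PDGFR-β+ cells. In Scr SMCs they averaged 2.04 and 3.26 TPM.

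Of the 10 genes, 7 lie within 1.352 Mb of the MHC on chromosome 17, while B2m is on chromosome 2 and Psmb10 and Nlrc5 are on chromosome 8 (GENCODE M21, GRCm38). Tapbp starts the interval at 33915899, followed by H2-K1 at 33996017 to 34000347 on the minus strand, and H2-D1 ends it at 35262730 to 35267499 on the plus strand. Psmb9, at 34181987 to 34187764 on the minus strand, and Tap1, at 34187553 to 34197225 on the plus strand, overlap head to head by 212 bp. Psmb8 at 34197721 to 34201454 and Tap2 at 34203527 to 34216321 follow on the plus strand. B2m, at 122147686 to 122153083, lies wholly within the oppositely transcribed Patl2. Libraries were strand-specific, but the sources used here do not state whether abundance was estimated by strand, so reads of such overlapping pairs may not have been told apart.

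The sequences before the RefSeq start sites of 4 of these genes are shown as examples of the heavy chains, the light chain and the immunoproteasome. Likeness of pattern did not set these 4 apart, and the matches of the other genes with a promoter entry are described below. Each is 250 bases in GRCm38.p6, read 5′ to 3′ on the strand of the gene and ending at the base before the start. The stretches of H2-D1 and Psmb8 lie inside the GENCODE bounds of these genes, since the RefSeq starts used are further downstream. Capitals mark matches to short motifs that were chosen after the sequences had been seen: the interferon regulatory factor element (GAAA and GAAA with any 2 bases between them) or its shorter form GAANNGAAA, the STAT element TTCNNNGAA, the NF-κB element GGGNNTTCC, the X2 element TGACG and the Y element CCAAT of the class I enhanceosome, and the KLF element CCACCC, each on either strand.
H2-K1, chr17:34000348-34000597, minus strand: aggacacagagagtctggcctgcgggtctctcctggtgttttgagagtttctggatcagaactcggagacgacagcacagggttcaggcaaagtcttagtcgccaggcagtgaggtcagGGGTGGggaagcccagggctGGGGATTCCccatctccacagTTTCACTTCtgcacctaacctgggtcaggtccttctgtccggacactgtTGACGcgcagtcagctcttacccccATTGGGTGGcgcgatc
H2-D1, chr17:35262844-35263093, plus strand: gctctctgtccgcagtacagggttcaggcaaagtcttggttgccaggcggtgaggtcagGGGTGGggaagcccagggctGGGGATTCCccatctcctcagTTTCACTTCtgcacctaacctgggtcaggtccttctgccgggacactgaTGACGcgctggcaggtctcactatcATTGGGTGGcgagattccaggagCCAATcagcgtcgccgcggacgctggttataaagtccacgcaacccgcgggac
B2m, chr2:122147437-122147686, plus strand: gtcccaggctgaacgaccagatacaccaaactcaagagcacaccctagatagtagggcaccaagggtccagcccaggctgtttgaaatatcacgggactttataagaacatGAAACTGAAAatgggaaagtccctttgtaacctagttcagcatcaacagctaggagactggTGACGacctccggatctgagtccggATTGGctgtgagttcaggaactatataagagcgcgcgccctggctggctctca
Psmb8, chr17:34197945-34198194, plus strand: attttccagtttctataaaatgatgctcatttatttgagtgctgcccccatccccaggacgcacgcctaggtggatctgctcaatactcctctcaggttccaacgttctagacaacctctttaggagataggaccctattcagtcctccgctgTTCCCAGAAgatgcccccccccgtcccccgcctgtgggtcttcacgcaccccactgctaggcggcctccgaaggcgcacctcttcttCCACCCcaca

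RefSeq promoter entries, which also hold the first 50 bases after the start, were matched for 8 of the 10 genes and not for Tap2 and Nlrc5. The entries of H2-K1 and H2-D1 aligned over 227 bases with 206 identical, and both held the NF-κB letters, the shorter interferon element on the opposite strand, X2, Y and CCACCC in the same order. In H2-D1 the NF-κB letters began at base -171 and the interferon letters at base -150 from the start. B2m held the longer interferon element at base -139, with X2 and Y downstream of it. The longer form was present in 3.44% and the shorter form in 7.52% of the 32851 promoters of the table, the NF-κB letters in 5.82%, and X2, Y and CCACCC in 20.8%, 37.4% and 31.5%. Psmb8 held the STAT letters, found in 8.30% of all promoters, at base -97. The entries of Psmb9 and Tap1 shared 275 bases, with a single X2 and Y element each and no interferon, STAT or NF-κB letters in these windows. The entry of Tapbp held Y and CCACCC letters alone, and that of Psmb10 held no match to any of these motifs. A match is a description of letters and not of a bound site.

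In Scr libraries, B2m was by far the most abundant of the 10 genes in both cell types. It averaged 1625 ± 134 TPM (SD, n = 3) in PDGFR-β+ cells and 1403 ± 283 TPM in SMCs. In PDGFR-β+ cells H2-D1 (109.7 ± 4.89 TPM), Tapbp (80.9 ± 5.82 TPM), H2-K1 (50.55 ± 4.22 TPM) and Tap2 (20.0 ± 3.09 TPM) followed in that order, with no overlap between neighbours. Psmb10 (12.25 ± 0.336 TPM) and Tap1 (12.1 ± 3.92 TPM) overlapped each other, and below them stood Nlrc5 (4.30 ± 0.666 TPM), Psmb8 (2.30 ± 0.492 TPM) and Psmb9 (0.390 ± 0.0612 TPM). The immunoproteasome genes Psmb8 and Psmb9 thus held the lowest ranks. In SMCs the order after B2m was H2-D1, H2-K1, Tapbp, Tap2, Tap1, Psmb10, Psmb8, Nlrc5 and Psmb9, and most neighbours were not separated: H2-D1 overlapped H2-K1, H2-K1 overlapped Tapbp, Tap2 overlapped Tap1, Psmb10 overlapped Psmb8, and Nlrc5 overlapped Psmb9.

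Scr SMCs and Scr PDGFR-β+ cells were then compared for the baseline level of each gene. Levels of 5 of the 10 genes were higher in SMCs and 0 were lower (limma, Benjamini-Hochberg adjusted p under 0.05 over 13800 genes, and 0 lower at an unadjusted p under 0.05), where 24.4% of all genes tested were higher in SMCs. Cell type, culture and table cannot be told apart here. Psmb9 differed most in fold of means, at 3.50, 3.64 and 2.90 TPM in SMCs against 0.4045, 0.323 and 0.443 TPM in PDGFR-β+ cells, an 8.57-fold higher mean (log2 difference 1.64 ± 0.15 SE, adjusted p = 0.000106). It had passed the filter on low values through the SMC libraries alone, so it was in the count because it was high there. It was also called with no filter. Psmb8, the subunit that replaces Psmb5, was at 9.99, 15.01 and 14.1 TPM in SMCs against 2.68, 1.745 and 2.48 TPM (log2 difference 2.08 ± 0.19, adjusted p = 9.0e-05). H2-K1 was 2.37-fold higher in SMCs (adjusted p = 0.00116), and neither it nor the 2 subunits overlapped between the groups. Tap1 (log2 difference 0.79 ± 0.22, adjusted p = 0.0187) and Tapbp (0.28 ± 0.082, adjusted p = 0.0240) were higher by less, and each fell short of the threshold when some single libraries were left out. For Tap1 these were Scr replicates 2 and 3 of either cell type, with adjusted p from 0.0531 to 0.0585. For Tapbp they were PDGFR-β+ Scr replicate 2 and SMC Scr replicates 2 and 3, with adjusted p from 0.0615 to 0.0872.

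The remaining 5 genes did not pass the test at baseline. The log2 difference of SMCs minus PDGFR-β+ cells was 0.43 for H2-D1 (95% confidence interval -0.10 to 0.96), -0.23 for B2m (-0.59 to 0.14), 0.25 for Tap2 (-0.14 to 0.63), 0.24 for Psmb10 (-0.0037 to 0.49) and -0.17 for Nlrc5 (-0.77 to 0.43). The unnumbered Scr SMC library set the H2-D1 value, since its 97.05 TPM stood well below the 180 and 185 TPM of the other SMC libraries. Without that library the log2 difference of H2-D1 was 0.73 and its adjusted p was 0.000603. The same library was the lowest of its group for 9 of the 10 genes, with Psmb9 as the exception.

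**Figure D1:**
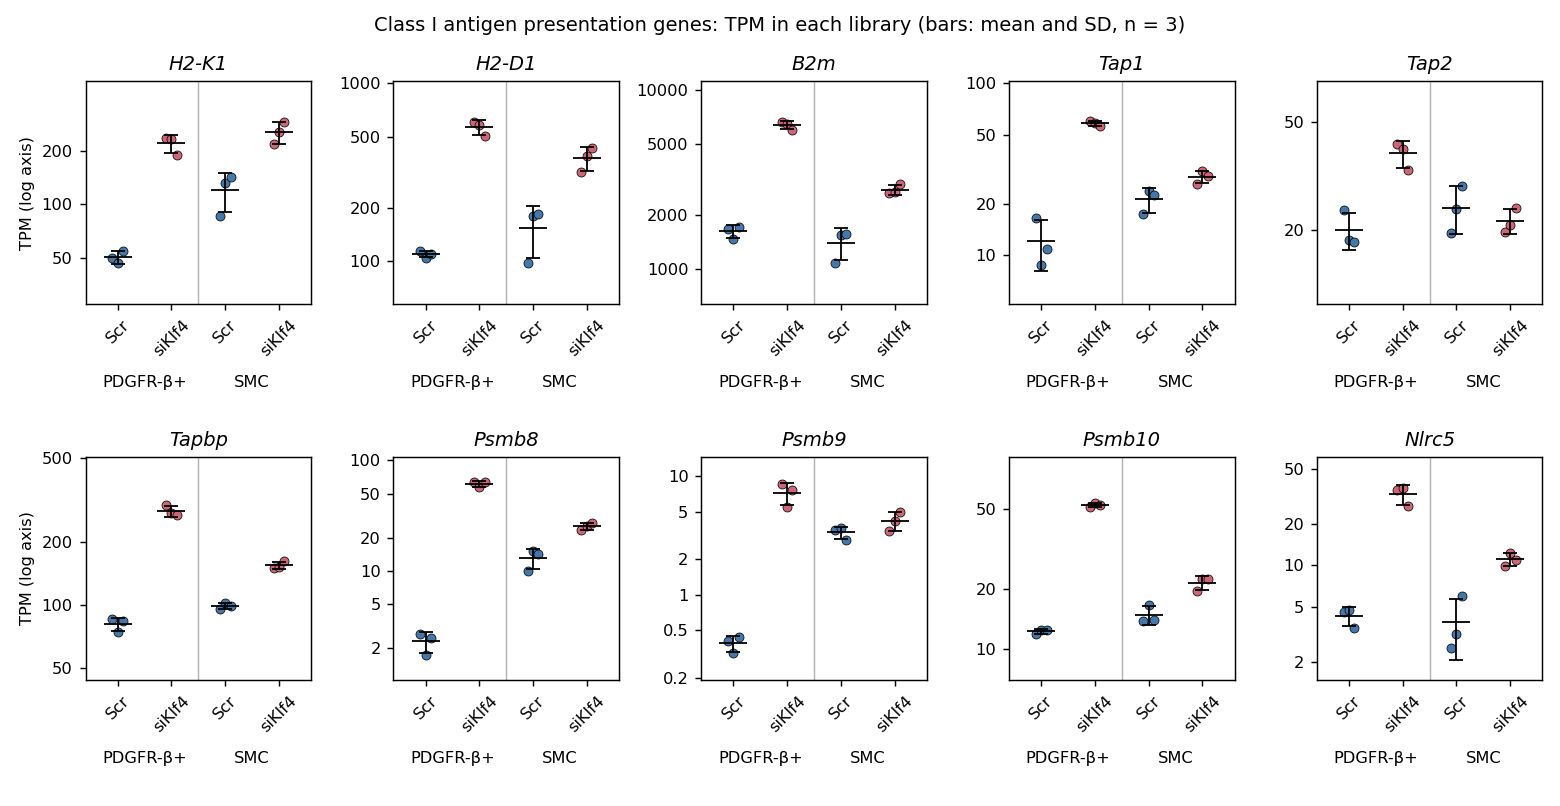
TPM of each of the 10 genes on a log axis, with a point for each library, blue for Scr and red for siKlf4, PDGFR-β+ cells at the left and SMCs at the right of each panel, and bars for the mean and SD (n = 3). In PDGFR-β+ cells the siKlf4 points lie above all Scr points for all 10 genes, whereas in SMCs the points of Tap2 and Psmb9 overlap.

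In PDGFR-β+ cells, all 10 genes were higher after siKlf4 and their groups did not overlap. The summed level of the 10 genes rose from 1745 to 2024 TPM in Scr libraries to 7198 to 8021 TPM after siKlf4. Psmb8 changed most, with a 26.6-fold higher mean, and Tap2 least, with a 1.91-fold higher mean. Over all 13694 genes tested in these cells, 25.3% were higher and 15.3% were lower after siKlf4 at an adjusted p under 0.05, and 33.9% were higher with groups that did not overlap. With median-ratio scaling the shares were 19.3% higher and 21.7% lower, and with quantile normalization 20.4% and 20.6%, while all 10 genes stayed higher under both. Psmb9 passed the filter on low values through the siKlf4 libraries alone, and it was also called with no filter. The median log2 change was 2.16 over the 10 genes and 0.097 over all genes tested, a value that median-ratio scaling moved to -0.0032. In bulk RNA, more cells that express a gene and more RNA of it per cell cannot be told apart.

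Among the surface molecules, H2-K1 was at 50.2, 46.5 and 55.0 TPM in Scr PDGFR-β+ libraries and at 236, 234 and 189 TPM after siKlf4. Its mean was 4.35-fold higher (log2 change 2.09 ± 0.11 SE, adjusted p = 1.6e-05). H2-D1 rose from 114, 104.5 and 110.3 TPM to 604, 584 and 505 TPM, 5.145-fold in the mean (log2 change 2.35 ± 0.0845, adjusted p = 5.4e-06). The lowest siKlf4 library of either heavy chain stood more than 3-fold above the highest Scr library. B2m, the light chain shared by all class I molecules, went from 1674, 1473 and 1728 TPM to 6621, 6498 and 5996 TPM (log2 change 1.97 ± 0.0855, adjusted p = 8.9e-06). The siKlf4 library of replicate 3 was the lowest of its group for each of these chains.

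Class I heavy chain genes are near copies of each other, so reads may have been shared among them and the split between H2-K1 and H2-D1 is uncertain. Their sum, which does not depend on that split, was 164, 151 and 165 TPM in Scr PDGFR-β+ libraries and 840.2, 818 and 694.5 TPM after siKlf4. All 17 H2 class I heavy chain rows together averaged 250.4 TPM after Scr and 1116 TPM after siKlf4, 4.46-fold higher. With 3 libraries against 3, the exact permutation test over libraries gave p = 0.1, the smallest two-sided value it allows. B2m stayed in excess of the main heavy chains, at 10.1 ± 0.355 times the sum of H2-K1 and H2-D1 after Scr and 8.15 ± 0.417 times after siKlf4, without overlap (exact permutation p = 0.1).

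Of the transport and loading genes, Tap1, which forms the transporter with Tap2, rose from 16.4, 8.83 and 10.95 TPM to 60.75, 58.6 and 56.9 TPM in PDGFR-β+ cells (log2 change 2.23 ± 0.19, adjusted p = 0.000144). Tap2 rose from 23.5, 18.4 and 18.0 TPM to 41.55, 39.8 and 33.2 TPM (log2 change 0.91 ± 0.13, adjusted p = 0.00154). Tap2 was the higher of the pair in every Scr library and Tap1 in every siKlf4 library. Tapbp, which encodes tapasin, the protein that bridges TAP and the heavy chain, rose from 85.1, 74.2 and 83.3 TPM to 298, 272 and 267 TPM (log2 change 1.78 ± 0.081, adjusted p = 1.0e-05).

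The immunoproteasome genes encode the catalytic subunits that take the place of Psmb5, Psmb6 and Psmb7 in new proteasomes. Psmb8 was at 2.68, 1.745 and 2.48 TPM in Scr PDGFR-β+ libraries and at 63.3, 57.3 and 63.15 TPM after siKlf4 (log2 change 4.25 ± 0.13, adjusted p = 3.3e-06). Psmb9 was below 1 TPM in every Scr library, at 0.4045, 0.323 and 0.443 TPM, and at 8.55, 5.50 and 7.66 TPM after siKlf4 (log2 change 2.55 ± 0.17, adjusted p = 5.3e-05). With so low a starting level its log2 change depends on the pseudocount, and it was 3.89 with 0.1 TPM in place of 1 TPM. Psmb10 rose from 11.9, 12.4 and 12.5 TPM to 51.1, 53.6 and 52.5 TPM (log2 change 2.01 ± 0.072, adjusted p = 5.4e-06), and the libraries of each group lay close together.

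Nlrc5, the transactivator, was at 4.62, 4.745 and 3.53 TPM in Scr PDGFR-β+ libraries and at 35.6, 36.35 and 26.9 TPM after siKlf4. The mean was 7.67-fold higher (log2 change 2.68 ± 0.15, adjusted p = 2.4e-05), and here too siKlf4 replicate 3 was the lowest of its group.

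In SMCs, 8 of the 10 genes were higher after siKlf4 and 0 were lower at an adjusted p under 0.05, and the same counts held at an unadjusted p under 0.05. Nlrc5, H2-D1, H2-K1 and B2m rose most, while Tap2 and Psmb9 did not pass the test. Over all 13709 genes tested in SMCs, 15.6% were higher and 12.9% lower at an adjusted p under 0.05, and 25.6% were higher with groups that did not overlap, compared with 8 of these 10 genes. The share of all genes higher was 10.1% without Scr replicate 2, 8.44% without siKlf4 replicate 2 and 9.46% without siKlf4 replicate 3, and the share lower was 8.44%, 7.72% and 7.61%. Of the 10 genes 7, 6 and 6 were then higher. The median log2 change was 0.78 over the 10 genes and 0.017 over all genes tested. The summed level rose from 1421 to 2092 TPM in Scr libraries to 3452 to 3989 TPM after siKlf4. The unnumbered library was the lowest of its group for 9 of the 10 genes after Scr and for 10 of the 10 after siKlf4, and with the numbered libraries alone the count was again 8 higher and 0 lower.

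Among the surface molecules in SMCs, values are given for the unnumbered library first and replicates 2 and 3 after it. H2-K1 was at 86.2, 131 and 141 TPM after Scr and at 218, 254 and 289.5 TPM after siKlf4 (log2 change 1.10 ± 0.19, adjusted p = 0.00757). H2-D1 was at 97.05, 180 and 185 TPM and at 317, 387 and 434 TPM (log2 change 1.34 ± 0.25, adjusted p = 0.00932). In both groups the unnumbered library was the lowest, and the groups stayed apart. B2m rose from 1077, 1554 and 1579 TPM to 2666, 2682 and 2986 TPM (log2 change 1.00 ± 0.15, adjusted p = 0.00453). The sum of H2-K1 and H2-D1 rose from 183, 311 and 326 TPM to 534.5, 642 and 723 TPM, 2.32-fold in the mean. B2m was 5.24 ± 0.558 times that sum after Scr and 4.43 ± 0.482 times after siKlf4, and these ratios overlapped.

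Transport and loading genes moved less in SMCs. Tapbp was at 95.04, 102 and 98.5 TPM after Scr and at 149.6, 151 and 161 TPM after siKlf4 (log2 change 0.64 ± 0.064, adjusted p = 0.00131). Tap1 was at 17.3, 23.7 and 22.6 TPM and at 26.1, 31.1 and 28.9 TPM, a log2 change of 0.43 ± 0.13 with an adjusted p of 0.0489. The call for Tap1 was lost when any single SMC library was left out, with adjusted p from 0.0552 to 0.147. Tap2 was at 19.4, 23.8 and 29.05 TPM after Scr and at 19.6, 20.9 and 24 TPM after siKlf4, and its log2 difference of -0.14 had a 95% confidence interval from -0.50 to 0.22 (adjusted p = 0.514).

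Of the immunoproteasome genes Psmb8 rose most in SMCs, 1.94-fold in the mean, from 9.99, 15.01 and 14.1 TPM to 23.4, 25.5 and 26.8 TPM (log2 change 0.92 ± 0.15, adjusted p = 0.00599). Psmb10 rose from 13.8, 16.5 and 13.9 TPM to 19.5, 22.3 and 22.4 TPM (log2 change 0.51 ± 0.11, adjusted p = 0.0130), and its call was lost without siKlf4 replicate 2 or replicate 3 (highest adjusted p = 0.0527). Psmb9 was at 3.50, 3.64 and 2.90 TPM after Scr and at 3.43, 4.16 and 5.01 TPM after siKlf4, with overlap and a log2 difference of 0.25 (95% confidence interval -0.11 to 0.62, adjusted p = 0.262). Nlrc5 rose from 2.49, 3.19 and 5.99 TPM to 9.93, 12.3 and 11.0 TPM, 2.85-fold in the mean (log2 change 1.37 ± 0.25, adjusted p = 0.00861).

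**Figure D2:**
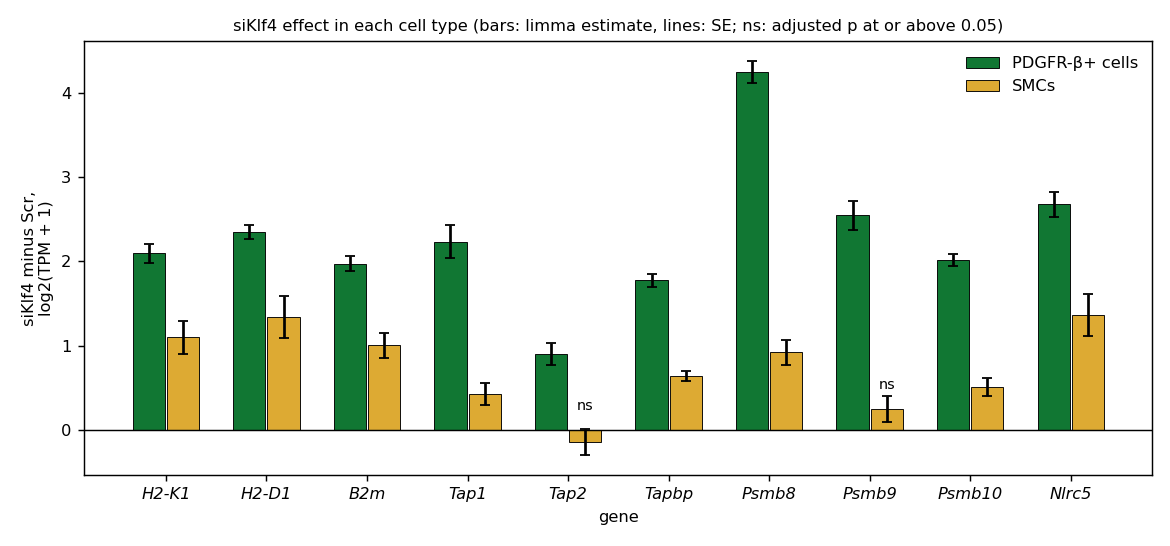
Difference of siKlf4 minus Scr on the log2(TPM + 1) scale for each of the 10 genes, in PDGFR-β+ cells (green) and SMCs (yellow), as the limma estimate with its SE. Every green bar is taller than its yellow neighbour, from 0.91 for Tap2 to 4.25 for Psmb8, and Tap2 and Psmb9 in SMCs are marked as not passing the test.

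Whether the response differed between the cell types was tested as an interaction of cell type and treatment in 1 model of 12 libraries. All 10 genes changed less in SMCs than in PDGFR-β+ cells at an adjusted p under 0.05, where 18.5% of the 13032 genes tested changed less, or fell more, in SMCs and 14.5% the other way. With median-ratio scaling these shares were 15.3% and 18.5%, and the 10 genes still passed. Cell type, culture and any difference in transfection reagent or siRNA supplier cannot be told apart in this comparison. The gap was widest for Psmb8, with a log2 difference of the changes of -3.33 ± 0.21 SE (adjusted p = 2.13e-06), followed by Psmb9 at -2.30 ± 0.23, Tap1 at -1.80 ± 0.25 and Psmb10 at -1.50 ± 0.12. It was narrowest for B2m at -0.97 ± 0.19, H2-K1 at -0.99 ± 0.24 and H2-D1 at -1.01 ± 0.29 (adjusted p = 0.0204, the highest of the 10). Tap2, at -1.05 ± 0.21, lay close to H2-D1. By these estimates the peptide-generating subunits Psmb8 and Psmb9 differed most between the cell types. Both also had the largest baseline log2 differences of the 10 genes, higher in Scr SMCs by 2.08 and 1.64. The same Scr libraries enter both comparisons, so this ranking is not independent of the baseline levels. The surface chains had the smallest estimates of the difference in response, but not with the numbered SMC libraries alone. There H2-D1 was at -1.19, Tapbp at -1.14, Tap2 at -1.13, B2m at -1.12 and H2-K1 at -1.10. Nlrc5, at -1.31 ± 0.31, stood between Tapbp at -1.13 ± 0.10 and Psmb10.

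The 3 catalytic exchanges of the immunoproteasome were also read as ratios within each library, which do not depend on how libraries are scaled. Psmb8 over Psmb5 was 1.55%, 0.934% and 1.64% in Scr PDGFR-β+ libraries and 36.2%, 35.4% and 39.1% after siKlf4. In SMCs the same ratio was 9.27%, 10.3% and 9.99% after Scr and 18.0%, 19.1% and 18.0% after siKlf4. After Scr the ratio was thus higher in SMCs, and after siKlf4 it was higher in PDGFR-β+ cells. Psmb9 over Psmb6 went from a mean of 0.168% to 2.78% in PDGFR-β+ cells, 16.6-fold, and was 1.92% and 2.05% in SMCs, where the groups overlapped. Psmb10 over Psmb7 went from 5.64% to 21.2% in PDGFR-β+ cells, 3.76-fold, and was 10.5% and 11.5% in SMCs, again with overlap. Each ratio without overlap gave an exact permutation p of 0.1, the smallest two-sided value that 3 libraries against 3 allow. Even after siKlf4 the constitutive partner was the more abundant of each pair in every library.

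**Figure D3:**
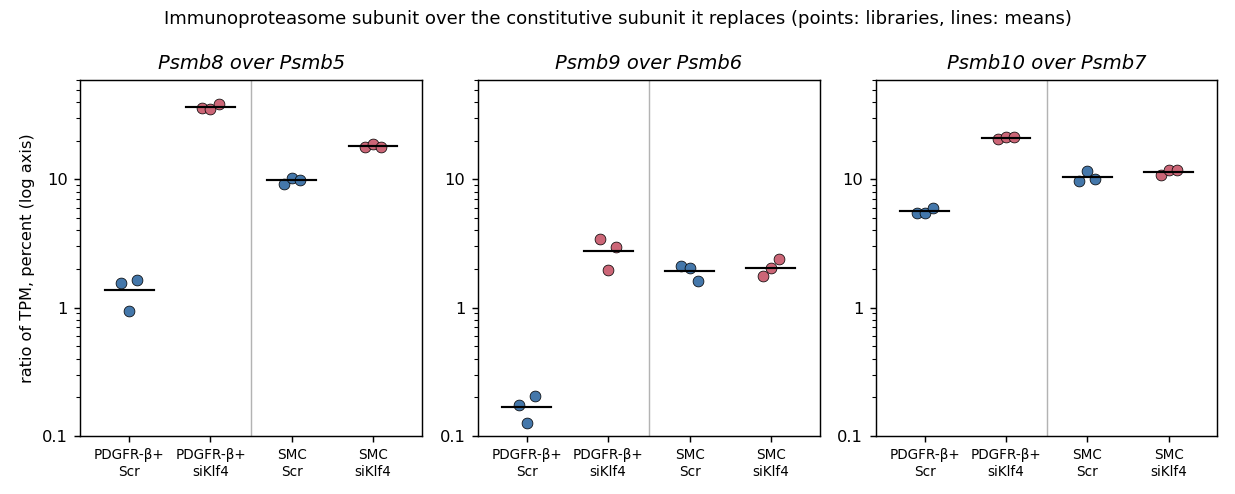
Ratio of each immunoproteasome subunit to the constitutive subunit it replaces, in percent of TPM on a log axis, with a point for each library (blue for Scr, red for siKlf4) and a line for the mean. The PDGFR-β+ points rise in all 3 panels, from a mean of 1.38% to 36.9% for Psmb8 over Psmb5, whereas the SMC points move apart only in that panel, from 9.87% to 18.4%.

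Between siKlf4 and Scr the constitutive subunits differed by at most 0.41 in log2(TPM + 1). Between the Scr groups, Psmb7 was lower in SMCs by 0.63 and Psmb6 by 0.43, which enters the baseline ratios. In PDGFR-β+ cells Psmb5 averaged 170.2 TPM after Scr and 166 TPM after siKlf4 (adjusted p = 0.817), Psmb6 averaged 236 and 263 TPM (adjusted p = 0.186), and Psmb7 rose from 217 to 247 TPM (log2 change 0.18, adjusted p = 0.0478, and 0.329 with median-ratio scaling). In SMCs Psmb6 rose from 175 to 204 TPM (log2 change 0.22, adjusted p = 0.0405, and 0.058 with median-ratio scaling) and Psmb7 from 140.2 to 186 TPM (log2 change 0.41, adjusted p = 0.00384), while Psmb5 averaged 131 and 138 TPM (adjusted p = 0.669). Of 12 other genes of the 20S core and its maturation factor Pomp, PDGFR-β+ cells had 4 higher and 1 lower and SMCs had 6 higher and 0 lower, with medians of 0.16 and 0.20 on the log2 scale. With median-ratio scaling these counts were 1 higher and 2 lower in PDGFR-β+ cells and 5 and 0 in SMCs. The largest of these changes was the fall of Psma1, an alpha ring subunit, in PDGFR-β+ cells by 0.62 (adjusted p = 0.000593). Psme1 and Psme2, the interferon-inducible subunits of the PA28 cap that opens the proteasome, rose in PDGFR-β+ cells from 68.8 to 149.5 TPM (log2 change 1.11, adjusted p = 3.7e-05) and from 93.2 to 174 TPM (log2 change 0.90, adjusted p = 5.4e-05). In SMCs their log2 differences were -0.046 (95% confidence interval -0.21 to 0.12) and 0.18 (-0.077 to 0.43), and neither passed the test. Psme3, the nuclear PA28 subunit, moved the other way, with a fall of 0.25 in PDGFR-β+ cells (adjusted p = 0.0336) and a rise of 0.43 in SMCs (adjusted p = 0.00525).

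Beyond H2-K1 and H2-D1, 20 genes for other class I and class I-like heavy chains were in the tables, and 12 were abundant enough to test in PDGFR-β+ cells and 11 in SMCs. In PDGFR-β+ cells 9 were higher and 1 lower, and in SMCs 3 were higher and 2 lower. Of the higher ones, 4 in PDGFR-β+ cells (H2-Q6, H2-Q7, H2-T10 and H2-T24) and 2 in SMCs (H2-Q6 and H2-Q7) had passed the filter through the siKlf4 libraries alone, so they were in the count because they were high there. Without them 5 of 8 were higher and 1 lower in PDGFR-β+ cells, and 1 of 9 was higher and 2 lower in SMCs. H2-Q4, a non-classical chain of the Qa family, rose from 4.35, 3.62 and 5.75 TPM to 80.9, 79.45 and 65.45 TPM in PDGFR-β+ cells (log2 change 3.79 ± 0.15) and from 5.02, 12.95 and 13.9 TPM to 28.0, 36.9 and 45.2 TPM in SMCs (log2 change 1.78 ± 0.36). H2-T24 (log2 change 2.14) and H2-Q7 (1.80) were next in PDGFR-β+ cells, and H2-Q7 (1.72) and H2-Q6 (1.37) in SMCs. These rows share sequence with H2-K1 and H2-D1, so part of their values may be reads of the classical genes. The class I-like genes that bind no peptide differed in direction among themselves. Fcgrt, the neonatal Fc receptor heavy chain, fell in SMCs by 0.57 on the log2 scale (adjusted p = 0.00629), and its difference in PDGFR-β+ cells was -0.14 (95% confidence interval -0.40 to 0.11). Cd1d1, which presents lipids, rose in PDGFR-β+ cells by 0.84 (adjusted p = 0.00140) and fell in SMCs by 0.60 (adjusted p = 0.0139). Mr1, which presents vitamin metabolites, fell by 0.38 in PDGFR-β+ cells (adjusted p = 0.00597).

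The 14 genes for peptide trimming and for chaperones of the endoplasmic reticulum did not follow the 10 genes as a group. In PDGFR-β+ cells 2 were higher and 4 lower, with a median log2 change of -0.092, and in SMCs 5 were higher and 0 lower, with a median of 0.18. With median-ratio scaling the PDGFR-β+ counts were 1 higher and 7 lower. Erap1, the aminopeptidase that trims peptides in the endoplasmic reticulum, rose in both, from 16.9, 13.1 and 21.4 TPM to 40.9, 38.15 and 33.4 TPM in PDGFR-β+ cells (log2 change 1.11, adjusted p = 0.00195) and from 15.6, 14.9 and 14.7 TPM to 27.0, 21.2 and 22.4 TPM in SMCs (log2 change 0.60, adjusted p = 0.00757). The 4 that fell in PDGFR-β+ cells were Uggt1, the glucosyltransferase that returns misfolded glycoproteins to the folding cycle, by 1.40, the lectin chaperones calreticulin (Calr) by 0.87 and calnexin (Canx) by 0.52, and the aminopeptidase Lap3 by 0.27 on the log2 scale. Pdia3 and Ganab, which also act in glycoprotein folding, differed by -0.095 (adjusted p = 0.297) and -0.088 (adjusted p = 0.394). In SMCs Canx rose by 0.40 (adjusted p = 0.00512) and Uggt1 by 0.34 (adjusted p = 0.0323).

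Of 17 genes that carry interferon signals to class I genes, 15 were tested in each cell type. In PDGFR-β+ cells 8 were higher and 1 lower, and in SMCs 5 were higher and 2 lower, beside medians over all tested of 0.76 and -0.062. With median-ratio scaling 8 were higher and 4 lower in PDGFR-β+ cells. Ifnb1 in PDGFR-β+ cells and Irf8, which was lower in SMCs, passed the filter through 1 group alone, and without them the counts were 7 higher and 1 lower of 14 and 5 and 1 of 14. Irf7, which amplifies the type I response, had the largest difference of these genes on the log2(TPM + 1) scale in both, at 5.13 and 1.92. Irf1, a direct activator of class I and immunoproteasome promoters, rose in PDGFR-β+ cells from 22.7, 19.3 and 20.65 TPM to 64.45, 61.4 and 32.5 TPM (log2 change 1.24, adjusted p = 0.00586), where siKlf4 replicate 3 again lay lowest, and in SMCs it was at 32.6, 33.0 and 30.3 TPM after Scr and at 17.6, 33.2 and 27.3 TPM after siKlf4 (log2 difference -0.33, 95% confidence interval -0.82 to 0.16). Among the ligands, Ifng was listed at 0 TPM in all 12 libraries. Ifnb1, which encodes interferon β, was listed at 0 in every Scr library and in every SMC library, and at 5.19, 3.71 and 3.16 TPM in PDGFR-β+ cells after siKlf4. The part of these ligands and factors in the levels of the 10 genes was not tested.

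**Figure D4:**
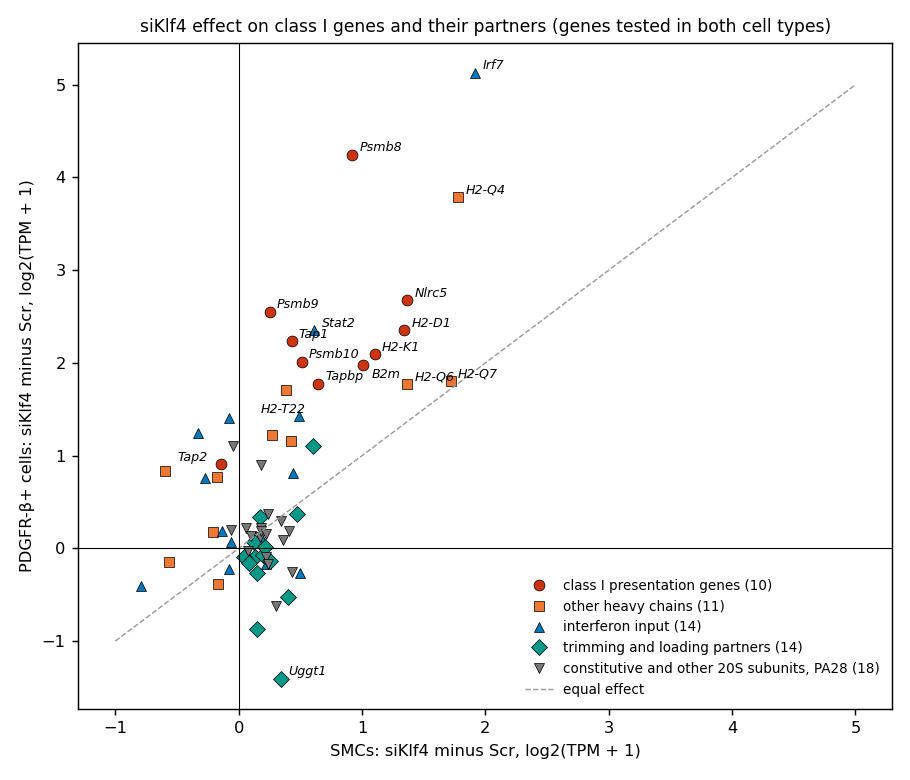
Each point is a gene tested in both cell types, placed by its siKlf4 minus Scr difference on the log2(TPM + 1) scale in SMCs (horizontal) and PDGFR-β+ cells (vertical), with a dashed line at equal effect. The 10 class I presentation genes and most interferon genes lie above the line, up to Irf7 at 5.13 and 1.92, while Uggt1 and the chaperones Calr and Canx are among those below it.

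The partners through which NLRC5 reaches class I promoters, the RFX, NF-Y and CREB/ATF factors, moved less than Nlrc5. In SMCs 0 of 8 passed limma's adjusted threshold in either direction (2 higher and 1 lower at an unadjusted p under 0.05), and in PDGFR-β+ cells 2 were higher and 1 lower. Nfyb rose there by 0.67 (adjusted p = 0.000854) and Nfya by 0.45 (adjusted p = 0.0335, and 0.0886 with median-ratio scaling), and Atf1 fell by 0.80 (adjusted p = 0.000155). The MHC class II genes did not follow the class I genes in PDGFR-β+ cells, where 0 of 4 tested were higher (0 at an unadjusted p under 0.05) and 1, Ifi30, was lower, or 3 with median-ratio scaling. In SMCs 2 of 5 were higher and 1 lower: H2-Ab1, a class II beta chain, rose from 1.51, 2.71 and 2.07 TPM to 5.15, 9.445 and 9.33 TPM (log2 change 1.51, adjusted p = 0.00595), Ifi30, a lysosomal thiol reductase, rose by 0.82 (adjusted p = 0.00341), and the class II loading chaperone chain H2-DMb1 fell by 0.62 (adjusted p = 0.0163). Ciita, the class II counterpart of Nlrc5, was at or below 0.0649 TPM in every library.

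Markers of other cell types that could carry class I molecules were low. The 10 leukocyte markers summed to 29.0 to 30.6 TPM in Scr and 19.1 to 22.9 TPM in siKlf4 PDGFR-β+ libraries, and to 5.30 to 8.18 TPM and 4.68 to 7.40 TPM in SMC libraries. Of those abundant enough to test, 0 of 3 were higher in PDGFR-β+ cells and 0 of 2 in SMCs by limma, with 0 higher in either at an unadjusted p under 0.05, and 2, Lyz2 and Csf1r, were lower in PDGFR-β+ cells. Lyz2, the most abundant of them in PDGFR-β+ cells, fell from 19.0 to 11.3 TPM (adjusted p = 0.00538), Cd68 averaged 7.56 and 8.77 TPM, and Tyrobp and Cd3e were at 0 throughout. Csf1r passed the filter in PDGFR-β+ cells through the Scr libraries alone, and without it 1 of 2 was lower. The 6 endothelial markers summed to 15.3 to 18.4 TPM and 14.1 to 16.2 TPM in PDGFR-β+ cells, nearly all of it Kdr, with Pecam1 below 1 TPM and Tek higher after siKlf4 (1.33 to 2.55 TPM, adjusted p = 0.0212), and to 1.34 to 2.65 TPM and 3.54 to 4.015 TPM in SMCs, where Kdr rose from 0.663 to 2.88 TPM. In SMCs Kdr had passed the filter through the siKlf4 libraries alone. In PDGFR-β+ cells Kdr was lower with median-ratio scaling (log2 change -0.38, limma adjusted p = 0.0202). The epithelial markers summed to at most 1.03 TPM in any library. The 7 smooth muscle markers did move with the treatment in SMCs, where 6 were higher, among them Acta2 (1373 to 2739 TPM, adjusted p = 0.00644) and Myh11 (15.6 to 49.2 TPM, adjusted p = 0.00119). In PDGFR-β+ cells 3 were higher and 3 lower. These counts were 2 and 4 with median-ratio scaling and 2 and 3 with quantile normalization. Des, which was lower there, passed the filter through the Scr libraries alone, and without it 3 of 6 were higher and 2 lower. The 6 mesenchymal markers moved down in PDGFR-β+ cells, where 0 were higher and 3 lower: Cspg4 fell from 26.9 to 6.00 TPM (adjusted p = 0.000337), Col1a1 from 1937 to 1264 TPM (adjusted p = 0.00816) and Pdgfrb from 447 to 339 TPM (adjusted p = 0.0218). In SMCs 0 were higher and 1, Cspg4, was lower. The part of these marker changes in the class I levels was not tested.

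The genes whose pattern was most like that of the 10 were found by the Pearson correlation, over the 12 libraries and after the mean of each cell type had been subtracted, with the mean standardized profile of the 10. The closest 8 were Pcdh17 (r = 0.997), Agrn (0.995), H2-T22 (0.994), Mpeg1 (0.993), Ubqln2 (0.993), Oas1g (0.992), Mov10 (0.992) and Parp10 (0.991). H2-T22, a non-classical class I chain encoded in the same complex, rose from 50.8 to 168 TPM in PDGFR-β+ cells and averaged 80.7 and 105 TPM in SMCs. Oas1g, an interferon-inducible oligoadenylate synthetase, rose from 0.0155 to 10.9 TPM in PDGFR-β+ cells and from 0.727 to 3.82 TPM in SMCs. Agrn, which encodes the heparan sulphate proteoglycan agrin, rose from 11.5 to 184 TPM and from 40.7 to 110 TPM. Within the 10, each gene's correlation with the mean of the others ran from 0.826 for Tap2 to 0.990 for Psmb8. These points share treatment groups, and the values describe likeness of pattern alone.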

How the data were processed

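Bulk RNA-seq of 12 libraries was used, in 4 groups of 3. Per the study's methods, libraries were strand-specific and made from poly(A) RNA. Reads were trimmed, mapped to mm10 by HISAT2 with GENCODE mouse genes (release not given in the sources used here) and quantified by StringTie and ballgown. The TPM values that the authors deposited form a table for SMCs and another for PDGFR-β+ cells, with a column for each library. Each column sums to 1000000 TPM, so depth is unknown and precision rests on the 3 libraries per group. The DESeq2 test of the study used counts that were not used here. No column of the tables was left out.

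Values were analysed as log2(TPM + 1) by limma 3.58.1 in R 4.3.3 (eBayes with trend, two-sided, Benjamini-Hochberg adjustment over all genes tested, threshold 0.05). Genes entered with a mean of 1 TPM or more in the libraries fitted, and for the difference between cell types in both. A fold change on this scale understates the change of low genes. The 2 cell types had separate fits, their difference came from the interaction in a model of all 12 libraries, and baseline levels were compared in the 6 Scr libraries. The steps were tested on simulated data. Ratios within libraries were compared by exact permutation (scipy 1.17.1), and promoters were aligned with Biopython 1.88. Of 52636 identifiers, 52403 were found in GENCODE M21, 49035 of them with the same version.

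The 10 genes and all lists were chosen with earlier results of these data known, and the motifs after the sequences had been seen. Genes named by rule are the 10, Klf4, Psmb5, Psmb6, Psmb7, Psme1, Psme2, Erap1 and Irf1, in other lists up to 3 per cell type with the largest change past the threshold, the 2 highest of each marker list, and the 8 genes most like the 10. Fcgrt, Cd1d1, Mr1, Ifng, Ifnb1, Ciita, Ptprc, Tyrobp, Cd3e, Pecam1, Pdgfra, Dcn, H2-T10, Lap3, Pdia3, Ganab, Irf8, Cfb, C2 and Tnxb were named after their values were seen. Alternatives were a pseudocount of 0.1 TPM, no filter or one at 5 TPM, scaling by median ratios, quantile normalization, eBayes without trend, a single fit, a term for whether an SMC library is numbered, the 4 numbered SMC libraries, a replicate block and leaving out each library. The single-cell data of the study were not analysed here, and 1 gene of the interferon list is not reported here.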

Additional observations from a re-analysis of the deposited data

Results flagged for a closer look

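All 10 genes were listed for a closer look because the siKlf4 effect differed between SMCs and PDGFR-β+ cells by the interaction term. On the log2(TPM + 1) scale, the effect in SMCs minus that in PDGFR-β+ cells was -0.99 for H2-K1, -1.01 for H2-D1, -0.97 for B2m, -1.80 for Tap1, -1.05 for Tap2, -1.13 for Tapbp, -3.33 for Psmb8, -2.30 for Psmb9, -1.50 for Psmb10 and -1.31 for Nlrc5. The remaining Klf4 level after siKlf4 was 12.3 to 13.8 TPM in PDGFR-β+ cells and 16.3 to 26.5 TPM in SMCs, and its part in these differences was not tested.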

How the results depend on the processing

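In PDGFR-β+ cells 10 of the 10 genes were higher under each alternative, apart from 9 with a minimum mean of 5 TPM, which left Psmb9 out. The difference between the cell types held for 10 under each, again with 9 at 5 TPM. In SMCs the count ran from 6 to 8. It was 6 without siKlf4 replicate 2 or 3, where Tap1 and Psmb10 were lost, and Tap1 was also lost with no filter, median-ratio scaling, quantile normalization, no trend and a single fit. At baseline the count ran from 3 to 6 when a library was left out, with 3 without PDGFR-β+ Scr replicate 2 or SMC Scr replicate 2 or 3. In these fits, in that order, 21.7%, 20.1% and 20.9% of all genes tested were higher in SMCs, which is not far from 3 of 10. The Nlrc5 baseline difference ran from -0.46 to 0.039 with libraries left out, and was 0.039 in the numbered SMC libraries. Other differences that did not pass also moved with the library left out: in SMCs Tap2 from -0.28 to -0.0031 and Psmb9 from 0.14 to 0.36, and at baseline B2m from -0.33 to -0.0495, Tap2 from 0.11 to 0.39 and H2-D1 from 0.27 to 0.73. With TPM + 1 in the ratios, the log2 rise in PDGFR-β+ cells was 4.28 for Psmb8 over Psmb5, 2.39 for Psmb9 over Psmb6 and 1.83 for Psmb10 over Psmb7. The Psmb9 over Psmb6 ratio in SMCs differed by -0.029 to 0.21 on the log2 scale with libraries left out, below 0 without Scr or siKlf4 replicate 3. The causes were not tested.

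With a replicate block, 10 of 10 genes were higher in PDGFR-β+ cells, 8 in SMCs (numbered libraries) and 10 differed between them. Deviations of libraries with the same number correlated at 0.073, -0.016 and 0.0043 in PDGFR-β+ cells. Those with different numbers correlated at -0.098 to 0.083 there. In SMCs the correlations were higher for the same number, at 0.19 and 0.20, than for different numbers, at 0.0499 and 0.0476. Only 2 numbered pairs exist in SMCs, so whether the numbers pair these libraries could not be settled. The main fits used no pairing in either cell type. Over all genes, scaling by median ratios changed 3461 higher and 2098 lower to 2639 and 2977 in PDGFR-β+ cells, and leaving out a library gave 1157 to 2037 higher and 1044 to 1578 lower in SMCs, where 2136 and 1774 had passed. The effect of depth cannot be stated, since TPM keeps none.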

Other observations

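The genes between Tapbp and H2-D1 on chromosome 17 (33915899 to 35267499, GRCm38) include 86 protein-coding genes beside the members of the list, and their values are given here for comparison by position. Of these, 49 were tested in PDGFR-β+ cells, where 11 were higher (22.4%) and 7 lower (14.3%) after siKlf4, with a median log2 change of -0.0057. In SMCs 54 were tested, 7 of them higher (13.0%) and 10 lower (18.5%), with a median of 0.073. Over all genes tested, 25.3% were higher and 15.3% lower in PDGFR-β+ cells and 15.6% and 12.9% in SMCs. With median-ratio scaling the neighbours in PDGFR-β+ cells were 14.3% higher and 26.5% lower, beside 19.3% and 21.7% of all genes, and in SMCs their counts were as above. Cfb, which encodes complement factor B, rose in PDGFR-β+ cells from 3.55 to 14.9 TPM (log2 change 1.79, adjusted p = 0.00130). Tnxb, which encodes the matrix protein tenascin XB, fell from 15.5 to 2.02 TPM in PDGFR-β+ cells (adjusted p = 3.8e-05) and from 14.3 to 3.74 TPM in SMCs (adjusted p = 0.00299). The complement gene C2 fell in SMCs from 20.5 to 11.4 TPM (adjusted p = 0.00850).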
